A study of Mus musculus with 6 samples.

Results

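Cardiac fibroblasts that the authors' cell cycle calls placed in S or G2M were compared with fibroblasts called G1 in the same libraries. Fibroblasts were the cells of the authors' clusters CF1, CF2, CF3 and CF4, and cells called S or G2M are named cycling below. The cycling cells were chosen by measured values: each cell carries a deposited S score and a deposited G2/M score, and all 21706 calls of the series followed the sign and order of those scores. In 5 libraries, 6365 of the 21706 cells of the series were fibroblasts, of which 2636 were cycling and 3729 were G1. The study profiled dissociated adult mouse hearts with Drop-seq, in which single cells are captured in droplets with barcoded beads and each transcript copy is counted once by its unique molecular identifier (UMI). Control hearts were of the strain Myh6-MCM, which carries a tamoxifen-inducible Cre driven by the cardiomyocyte gene Myh6. YAP5SA hearts were of the strain Yap5SA+/tg; Myh6-MCM, in which Cre switches on an activated form of the co-activator YAP. All hearts of both strains had received tamoxifen, and the labels give the age as adult. Because Myh6 drives the Cre, fibroblasts of YAP5SA hearts are not designed to make the transgene product. The tissue libraries hold settled cardiomyocytes recombined with the other cells, and the enriched libraries hold the cardiomyocyte-enriched fraction alone. Values below are given in the fixed library order Control tissue-2, Control tissue-3, YAP5SA tissue-1, YAP5SA tissue-2 and YAP5SA enriched, named as in the deposited cell table. The Control enriched library, with 10 fibroblasts among 1405 cells, was left out. YAP5SA enriched instead held 1249 fibroblasts and 1303 cycling and 524 G1 macrophages among 4566 cells. Despite the name of its fraction, most cells of that library were thus not cardiomyocytes. The labels do not state whether the libraries came from separate animals, so p-values refer to these libraries only. Those of the gene tests draw on counting error and on a spread estimated across all genes. They are therefore not a measure of the spread between the 5 libraries alone.

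Cardiac fibroblasts make and maintain the collagen and proteoglycan matrix of the heart, and in the undisturbed adult heart they seldom divide. Dividing cells copy their DNA in S phase with replication enzymes driven largely by E2F transcription factors, and then express a mitotic programme of cyclin B, spindle, kinetochore and cytokinesis genes. Promoters of many of those mitotic genes carry CCAAT boxes and the cell cycle genes homology region (CHR), elements bound by the factor NF-Y and by the DREAM and MuvB complexes.

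The fibroblast label was checked against marker genes. Levels are given as CPM on a pair of scales. Summed levels of a list are its UMIs divided by all UMIs of the cells and multiplied by 1000000. Levels of single genes are scaled instead to the UMIs of the tested genes, multiplied by edgeR's TMM factor for that sum. The TMM factors were 0.856 and 1.08 for the G1 and cycling sums of Control tissue-3 and between 0.962 and 1.05 for the other 8 sums, so the scale matters most in that library. The summed level of 22 fibroblast markers was 55035 CPM in these clusters, against 949 CPM in the cardiomyocyte clusters and 808 CPM in the macrophage clusters. It was 40439 CPM in epicardial, 18650 CPM in endocardial, 16906 CPM in smooth muscle, 10395 CPM in endothelial cells and 3602 CPM in monocytes. The list thus separates fibroblasts only weakly from epicardial cells. The 6 libraries held between 3382656 and 13483791 UMIs, and the summed fibroblasts of 1 library and phase group held between 56661 and 2604534 UMIs. Between 0 and 2 cell barcodes were shared by any pair of libraries. Control tissue-3 stood apart. It had 57 cycling fibroblasts and a median of 970 UMIs per fibroblast, against 1225 to 2087 in the other 4 libraries. On the scale of single genes, 1 UMI of its cycling sum is about 17 CPM. Low cycling levels of Control tissue-3, and directions or separations that depend on them, therefore rest on few UMIs. The summed level of 17 cardiomyocyte markers was 10583 CPM in its G1 fibroblasts against 1150 to 3854 CPM in those of the other 4 libraries. Macrophage markers stood at 2820 CPM in its G1 fibroblasts, against 379 to 695 CPM elsewhere. Results that rest on this library are given with and without it.

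Between 13.7% and 53.4% of fibroblasts were called S or G2M. The share was 53.4% in Control tissue-2 (783 of 1465 cells, 95% exact binomial interval 50.9 to 56.0%) and 13.7% in Control tissue-3 (57 of 415 cells, 10.6 to 17.4%). It was 37.5% in YAP5SA tissue-1 (488 of 1302 cells), 39.5% in YAP5SA tissue-2 (764 of 1934 cells) and 43.6% in YAP5SA enriched (544 of 1249 cells). The intervals cover counting error only. The Control libraries held both the highest and the lowest share, and the 3 YAP5SA libraries lay between them. The mean was 40.2% in YAP5SA and 33.6% in Control libraries, a difference of 6.59 percentage points (exact permutation test over libraries, two-sided p = 0.8, with 0.1 the smallest p that 2 against 3 libraries allow). Without Control tissue-3 the difference in the share of fibroblasts called S or G2M was -13.3 percentage points. S calls made up 27.2%, 8.67%, 19.7%, 20.1% and 23.1% of the fibroblasts, and G2M calls 26.2%, 5.06%, 17.8%, 19.4% and 20.4%.

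**Figure D1:**
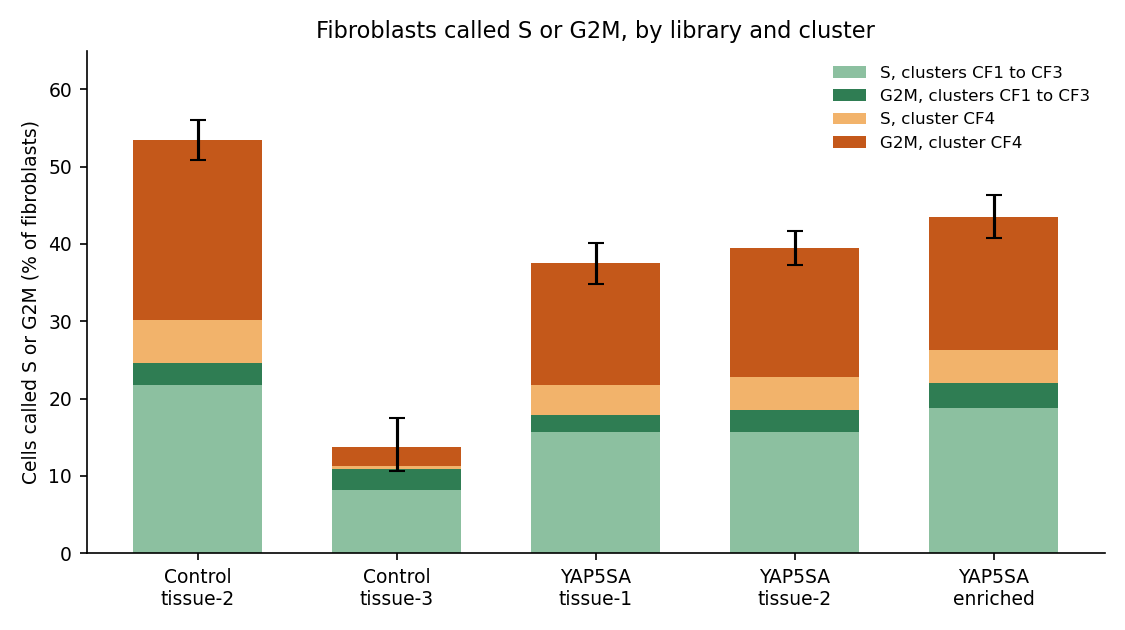
Share of fibroblasts called S or G2M in each of the 5 libraries, as stacked bars in percent of all fibroblasts of the library, split by call and by cluster CF4 against clusters CF1 to CF3. Error bars are 95% exact binomial intervals of the whole bar, and the Control bars at 53.4% and 13.7% enclose the 3 YAP5SA bars.

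Most G2M calls lay in a single cluster, with the exception of Control tissue-3. CF4 held 29.0%, 2.89%, 19.8%, 21.1% and 21.8% of the fibroblasts and 54.0%, 21.1%, 52.5%, 53.3% and 49.4% of the cycling ones. It held only 2, 0, 2, 2 and 3 G1 cells. Outside CF4, 34.6%, 11.2%, 22.2%, 23.4% and 28.1% of the fibroblasts were cycling, and most of these were S calls. G2M calls made up only 4.04%, 2.73%, 2.68%, 3.48% and 4.09% of the fibroblasts outside CF4.

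The cycling cells were thus not uniform, and the summed level of 78 mitosis genes that are not in the score lists was higher in every class of cycling cells than in G1 cells of CF1 to CF3. The levels in Control tissue-2 were 1806 CPM in G1 cells of CF1 to CF3, 3396 CPM in their S cells and 4449 CPM in their G2M cells. In CF4 of that library it was 8465 CPM in S cells and 13483 CPM in G2M cells. Within CF1 to CF3 the order of S and G2M cells varied: S cells were above G2M cells in YAP5SA tissue-1 (3052 against 2744 CPM) and in Control tissue-3 (1542 against 1201 CPM), and below them in the other 3 libraries. In every library the G2M cells of CF4 held the highest level, from 12374 to 15113 CPM, and the G1 cells of CF1 to CF3 held the lowest, from 958 to 1806 CPM. Replication and repair genes outside the scores followed S calls instead. In YAP5SA tissue-1 they stood at 777 CPM in G1 cells, 2572 CPM in S cells and 882 CPM in G2M cells of CF1 to CF3, and at 4818 CPM in S cells and 2214 CPM in G2M cells of CF4. The CF4 values of Control tissue-3 rest on 2 S and 10 G2M cells. These levels are a description, because the clusters were drawn from the same counts.

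**Figure D2:**
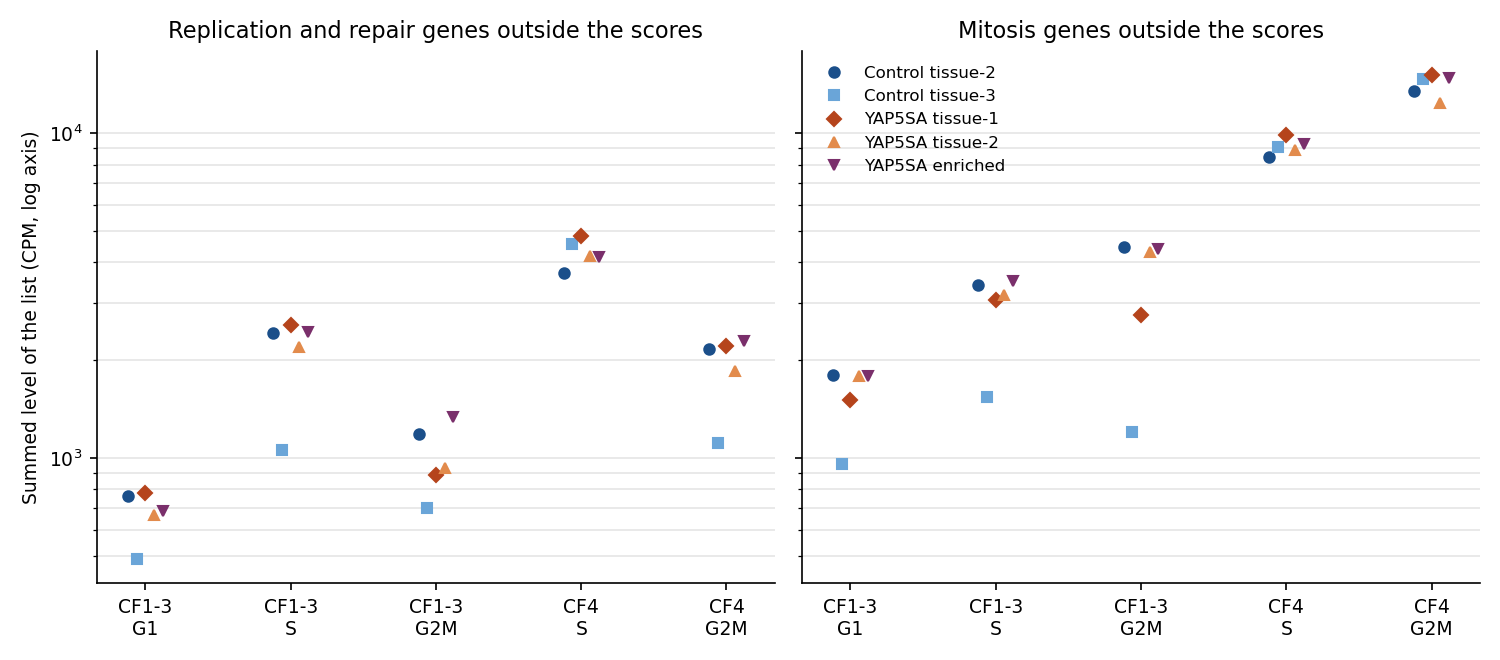
Summed CPM (log axis) of replication and repair genes (left) and mitosis genes (right), both outside the scores, in each library by cluster and call. Each symbol is 1 library, and the mitosis genes reach 12374 to 15113 CPM in G2M cells of CF4.

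The scores are continuous, and cells near the threshold of 0 were common. On the G1 side, 992 fibroblasts had their higher score between -0.05 and 0, and 442 cycling fibroblasts had it between 0 and 0.05. The mitosis genes outside the scores stood at 1937 CPM just inside G1 and at 2569 CPM just inside the cycling class. They stood at 9628 CPM in cells above 0.05. Cycling cells held more genes in 5 of 5 libraries, by a mean of 123.8 in the median per cell (exact sign-flip permutation test, p = 0.0625, the smallest that 5 pairs allow). The median number of UMIs per cell was 182.6 higher (4 of 5 libraries higher, exact permutation p = 0.125). The median mitochondrial share was lower in all 5 libraries, with a difference of -0.837 percentage points (exact permutation p = 0.0625). Without CF4 the difference was 25.6 genes (4 of 5 libraries higher, exact permutation p = 0.3125) and 31.9 UMIs (2 of 5 libraries higher, exact permutation p = 0.5). That of the mitochondrial share was -0.446 percentage points and lower in all 5 libraries. The part of depth in the gene results was not tested beyond the comparison in cells thinned to 1000 UMIs given below.

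Score genes chose the cells, so their levels are a description with no test. Mki67, a proliferation marker that coats mitotic chromosomes, stood at 9.42, 0, 14.7, 25 and 12.4 CPM in G1 and at 345, 170, 488, 384 and 447 CPM in cycling cells. Top2a, which untangles replicated DNA, stood at 9.42, 3.18, 14.7, 15.9 and 13.5 CPM in G1 and at 491, 272, 728, 508 and 798 CPM in cycling cells. Pcna, the sliding clamp of DNA polymerases, stood at 39.8, 41.4, 21.2, 48.4 and 31.4 CPM in G1 and at 174, 153, 159, 321 and 189 CPM in cycling cells. In all 3 genes the cycling levels lay above every G1 level.

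Among the 8714 genes tested outside the score lists, 1836 (21.1%) differed between cycling and G1 fibroblasts, paired by library. Of these, 951 (10.9%) were higher and 885 (10.2%) lower in cycling cells. The rises were the larger changes: 254 of the higher genes rose at least 2-fold, against 17 of the lower genes that fell at least 2-fold. The median log2 fold change was 0.62 among the higher and -0.41 among the lower genes. Only 73 of the 254 genes were on the lists of mitosis and replication genes, and 181 were outside both lists. The 2 phase groups did not overlap across the 5 libraries for 266 genes (3.05%), and 1886 genes (21.6%) moved the same way in all 5 libraries. Among the 1836 called genes these counts were 241 (13.1%) and 1099 (59.9%). With levels scaled to all UMIs of each sum, 290 genes did not overlap and 1793 moved the same way in all 5 libraries. The test was edgeR's quasi-likelihood test on UMI counts summed per library and phase, with Benjamini-Hochberg adjusted p of 0.05 or less over all genes fitted. The phases were called from the same cells' counts, and genes outside the lists can have entered the scores as control genes. Without Control tissue-3, 2027 genes were called. Without CF4, 420 of 7580 genes (5.54%) were called, 290 higher (3.83%) and 130 lower (1.72%), and 391 of them were among the 1836.

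**Figure D3:**
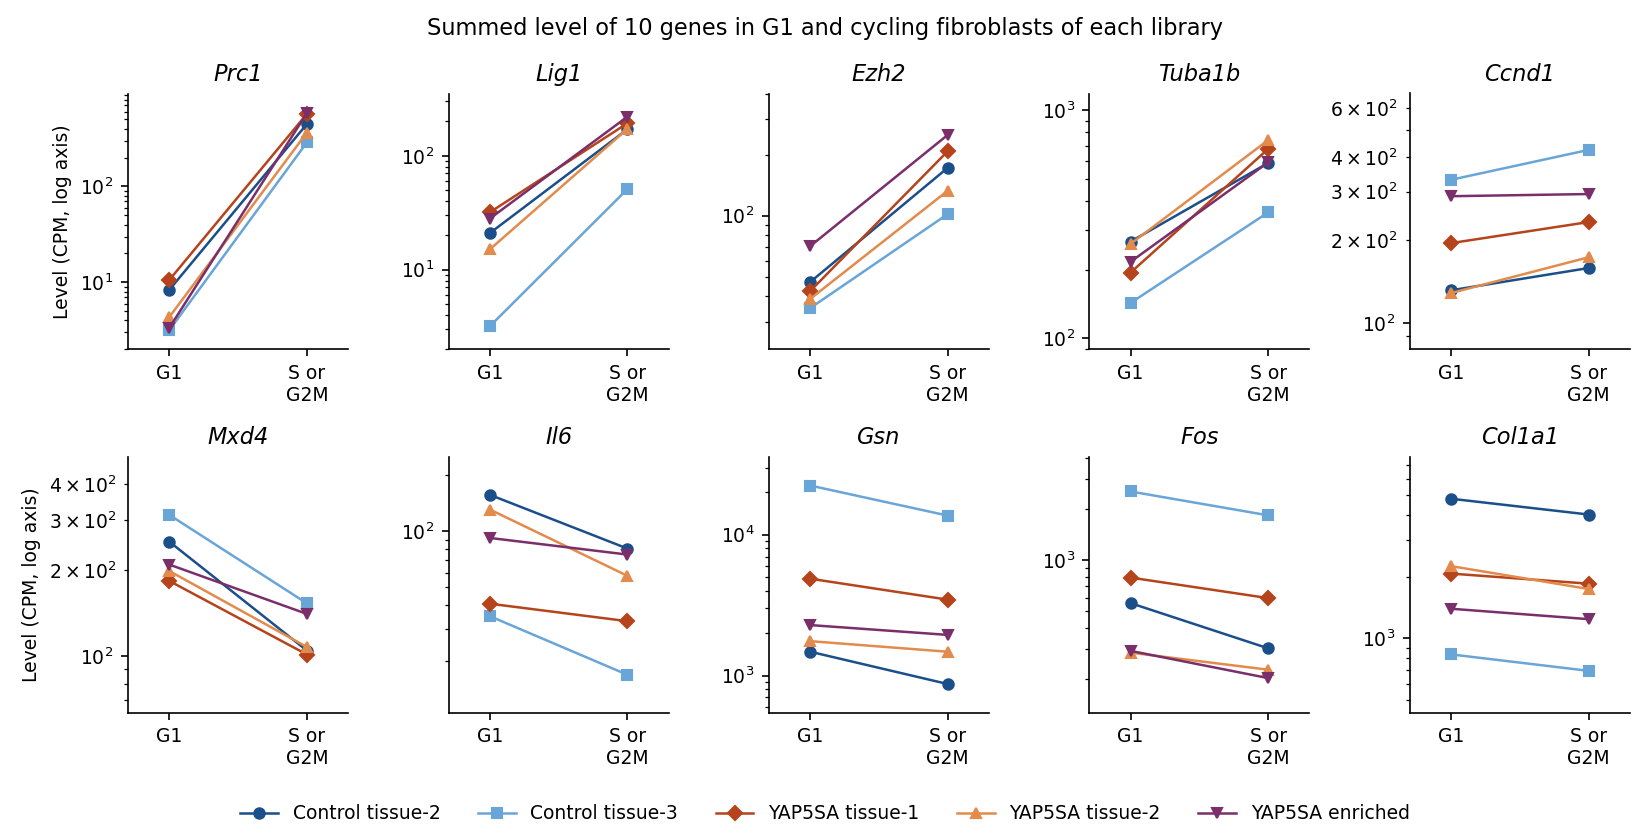
Level (TMM-scaled CPM, log axis) of 10 genes in G1 and cycling fibroblasts, 1 line per library. Prc1 rises from 3.18 to 10.6 CPM in G1 to 289 to 583 CPM in cycling cells, while Mxd4 falls in all 5 libraries.

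Mitosis genes outside the scores rose most. Of the 78 genes of this list, 54 passed the filter on low counts, which a gene can pass through the cycling cells alone. In a fit with no filter, 76 of all 78 rose and 0 fell, where 1821 of 19078 genes were called (9.55%; 5.54% higher and 4.01% lower). In the filtered fit Kif3a, a motor of intraflagellar transport, was the 1 member that fell, by 0.35 on the log2 scale.

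Prc1, which bundles the microtubules of the central spindle, stood at 8.37, 3.18, 10.6, 4.36 and 3.37 CPM in G1 and at 449, 289, 572, 365 and 583 CPM in cycling cells. Those levels come from 8, 1, 13, 11 and 3 UMIs in G1 and 628, 17, 487, 734 and 482 UMIs in cycling cells, and the groups do not overlap. The log2 fold change was 6.18 ± 0.13. Here and below, the value after ± is the log2 fold change divided by the square root of the test's F. It is not a fitted standard error, and it can be too small for genes with few UMIs in G1. Pbk, a mitotic kinase, had the largest rise by the naming rule, 6.80 ± 0.24, from 1.05, 0, 0, 2.38 and 0 CPM to 127, 50.9, 176, 147 and 143 CPM. Ccnb1, the cyclin that drives entry into mitosis, rose by 5.89 ± 0.23, from 1.05, 0, 0.817, 2.78 and 2.25 CPM to 127, 50.9, 135, 106 and 137 CPM. Ccna2, the cyclin of S phase and G2, rose by 5.51 ± 0.20 to between 84.9 and 174 CPM. In each of these genes the lowest cycling library lay above the highest G1 library. All of them were near 0 in G1, and the cells were called from other genes of the cell cycle. Their rise and separation are therefore a description, as for the other genes near 0 in G1 below.

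Cep55 and Aspm act at abscission and at the spindle poles, and rose by 5.79 ± 0.30 and 5.22 ± 0.24. Esco2, which acetylates cohesin during replication, rose by 5.62 ± 0.28. Casc5 and Sgol2a, a kinetochore scaffold and a protector of centromeric cohesin, rose by 5.30 and 5.34. Mxd3, a MAX-binding repressor, rose by 5.85 ± 0.24 from 0 to 2.45 CPM in G1 to 84.9 to 125 CPM in cycling cells. Its relative Mxd4 moved the other way, from 251, 312, 183, 198 and 209 CPM in G1 to 104, 153, 101, 107 and 140 CPM in cycling cells, with no overlap (log2 fold change -0.92 ± 0.09, adjusted p = 1.29e-23). Smc2, a condensin subunit, rose by 3.80 ± 0.10 from between 23.0 and 60.5 CPM to between 221 and 543 CPM. Incenp, the scaffold of the chromosomal passenger complex, rose by 4.27 ± 0.14 from between 6.28 and 18 CPM to between 84.9 and 264 CPM. H2afz and Tuba1b, on the same list, had smaller rises. H2afz, a histone H2A variant, rose by 1.77 ± 0.10 from 36.6, 31.8, 41.7, 57.1 and 82.0 CPM to 144, 84.9, 176, 167 and 285 CPM. Tuba1b, an alpha tubulin, rose by 1.47 ± 0.06 from 266, 143, 194, 260 and 217 CPM to 587, 356, 676, 739 and 590 CPM. Neither gene overlapped between the groups. For H2afz the separation was narrow, and its lowest cycling level, 84.9 CPM in Control tissue-3, rests on few UMIs.

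The promoters of genes that moved are shown because the mitotic programme is known for CCAAT boxes and CHR elements. Each line gives the last 150 bases before the RefSeq start of the gene in GRCm38.p6, 5′ to 3′ on the gene's strand. Capitals mark a CCAAT box (CCAAT, or ATTGG on the other strand) or a CHR (TTTGAA, or TTCAAA on the other strand), and the 2 motifs share no letters in these windows. The windows are chr13:100786487-100786636 on the minus strand for Ccnb1, chr7:80294301-80294450 on the plus strand for Prc1 and chr1:139454623-139454772 on the plus strand for Aspm. They are chr2:113848662-113848811 on the minus strand for Arhgap11a, a cell cycle regulated RhoA GTPase activator, and chr4:52439071-52439220 on the plus strand for Smc2. H2afz lies at chr3:137864337-137864486 on the plus strand, Ezh2 at chr6:47595031-47595180 on the minus strand, Lsm3 at chr6:91515885-91516034 on the plus strand and Mxd4 at chr5:34187711-34187860 on the minus strand.
Ccnb1: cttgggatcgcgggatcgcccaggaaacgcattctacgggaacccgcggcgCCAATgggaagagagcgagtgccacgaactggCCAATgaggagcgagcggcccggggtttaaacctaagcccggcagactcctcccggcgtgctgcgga
Prc1: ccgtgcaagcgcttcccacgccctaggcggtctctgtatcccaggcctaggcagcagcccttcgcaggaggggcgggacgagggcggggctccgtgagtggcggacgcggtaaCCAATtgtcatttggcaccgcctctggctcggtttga
Aspm: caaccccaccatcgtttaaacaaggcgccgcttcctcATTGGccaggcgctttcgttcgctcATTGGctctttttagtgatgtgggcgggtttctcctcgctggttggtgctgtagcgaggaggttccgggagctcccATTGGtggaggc
Arhgap11a: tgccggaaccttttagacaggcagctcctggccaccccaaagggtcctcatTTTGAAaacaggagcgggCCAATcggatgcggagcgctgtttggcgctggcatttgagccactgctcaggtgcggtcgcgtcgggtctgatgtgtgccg
Smc2: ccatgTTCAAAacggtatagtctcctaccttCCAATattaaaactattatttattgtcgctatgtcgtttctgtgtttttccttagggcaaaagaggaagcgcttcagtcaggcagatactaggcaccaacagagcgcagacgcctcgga
H2afz: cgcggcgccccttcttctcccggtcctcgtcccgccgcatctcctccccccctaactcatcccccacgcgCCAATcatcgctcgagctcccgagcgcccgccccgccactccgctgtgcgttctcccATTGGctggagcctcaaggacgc
Ezh2: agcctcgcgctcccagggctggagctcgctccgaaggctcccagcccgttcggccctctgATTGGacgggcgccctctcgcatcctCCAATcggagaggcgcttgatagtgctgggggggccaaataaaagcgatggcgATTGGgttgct
Lsm3: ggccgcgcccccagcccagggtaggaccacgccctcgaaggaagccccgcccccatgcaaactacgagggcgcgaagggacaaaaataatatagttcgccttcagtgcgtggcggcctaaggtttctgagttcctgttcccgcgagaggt
Mxd4: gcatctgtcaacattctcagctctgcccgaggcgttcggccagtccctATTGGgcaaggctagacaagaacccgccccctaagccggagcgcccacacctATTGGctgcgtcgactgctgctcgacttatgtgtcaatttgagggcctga

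Ccnb1 holds CCAAT at -99 and -67, counted from the start, and Prc1 holds 1 at -37. Aspm holds 3 ATTGG matches, and Arhgap11a and Smc2 each hold 1 CHR and 1 CCAAT box. H2afz and Ezh2 hold 2 and 3 CCAAT boxes, Lsm3 holds neither motif in this window, and Mxd4, which fell, holds 2. Over the 250 bases before the start, a CCAAT box was found for 27 of the 44 mitosis genes with a RefSeq window (61.4%) and for 21 of 34 chromatin and splicing genes (61.8%). It was found for 10 of 22 replication and repair genes (45.5%), 10 of 27 immediate early genes (37.0%) and 4 of 20 chemokine, cytokine and complement genes (20%). The share was 35.8% among the 6555 tested genes with a window (2345 genes) and 34.5% among all 27025 windows. A CHR was found for 11 of the 44 mitosis genes (25%), 7 of 34 chromatin and splicing genes (20.6%), 3 of 20 chemokine, cytokine and complement genes (15%) and 3 of 27 immediate early genes (11.1%). The share was 10.1% of the tested genes and 16.3% of all windows. Only 1 of 22 replication and repair genes held a CHR (4.55%). An E2F site (TTTGGCGC or TTTCCCGC) was found for 1 of 22 replication and repair genes (4.55%) and 5 of 44 mitosis genes (11.4%). That share was 2.78% of the tested genes. Both strands were searched, 1 window per gene was used, and a match describes the letters and not a bound site.

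Replication genes outside the scores rose with a smaller amplitude. With no filter, 45 of 46 members with counts rose and 0 fell. Tk1, thymidine kinase of the DNA precursor salvage route, stood at 14.6, 0, 4.09, 6.34 and 7.86 CPM in G1 and at 145, 33.9, 194, 179 and 158 CPM in cycling cells (log2 fold change 4.50 ± 0.16). Its rise is likewise a description, because the gene was low in G1. Lig1, which seals Okazaki fragments, stood at 20.9, 3.18, 31.9, 15.1 and 28.1 CPM in G1 and at 171, 50.9, 193, 172 and 220 CPM in cycling cells (3.07 ± 0.13). In neither gene did the phase groups overlap. Lig1 was 3.63 ± 0.13 higher in S cells and 2.15 ± 0.18 higher in G2M cells against G1, whereas Smc2 was 3.12 ± 0.12 and 4.23 ± 0.12 higher. Without CF4 the value for Lig1 was 3.11.

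Regulators of G1 did not move as a block. Of the 26 members tested of 29, 8 rose, 6 fell and 12 did not pass, with a median log2 fold change of 0.00 against -0.04 over all genes. Over all genes tested 10.9% rose and 10.2% fell. Cdc25b, a phosphatase that activates cyclin-dependent kinases, rose by 2.41, and Cdk2 and Cdk4, the kinases of the G1 to S transition, rose by 1.77 and 0.56. The INK4 inhibitors split: Cdkn2d and Cdkn2c rose by 2.03 ± 0.12 and 1.31 ± 0.13, while Cdkn2b fell by 0.87. Cdkn2d stood at 37.7, 35.0, 30.2, 31.3 and 37.1 CPM in G1 and at 167, 136, 173, 95.5 and 158 CPM in cycling cells, without overlap. Without CF4 the values for Cdkn2d and Cdkn2c were 0.16 and -0.021, so neither rise was seen without that cluster. The antiproliferative genes Tob1 and Btg2 fell by 0.84 and 0.73.

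The D cyclins, which carry growth signals to Cdk4 and Cdk6, differed from each other. Ccnd1 stood at 132, 331, 195, 129 and 289 CPM in G1 and at 159, 424, 233, 174 and 294 CPM in cycling cells. It was higher in 5 of 5 libraries although the groups overlap (0.26 ± 0.08, adjusted p = 0.00642). The value was 0.53 ± 0.09 in S cells and -0.10 ± 0.11 in G2M cells. Ccnd2 stood at 199, 134, 130, 99.9 and 122 CPM in G1 and at 147, 187, 83.5, 64.1 and 85.9 CPM in cycling cells, and fell by 0.52 ± 0.10 (adjusted p = 2.99e-06). Control tissue-3 was the 1 library in which it was higher, and without CF4 the value was 0.034. The inhibitors Cdkn1a (p21) and Cdkn1b (p27) did not pass, at -0.62 ± 0.26 (adjusted p = 0.184) and -0.08 ± 0.12 (adjusted p = 0.708). Cdkn1a was lower in 4 libraries and went from 85.9 to 221 CPM in Control tissue-3. Of 14 p53 target genes tested of 24, Gadd45a and Phlda3 fell, by 0.79 and 0.41, and the other 12 did not pass, where 10.2% of all genes tested fell.

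Genes of chromatin and splicing rose broadly and by small amounts. Of 38 members tested of 39, 34 rose and 0 fell, with a median of 0.50, and 21 of 38 rose without CF4. Over all genes tested 10.9% rose, and 3.83% rose without CF4. Ezh2, the methyltransferase of Polycomb repressive complex 2, stood at 47.1, 35.0, 42.5, 38.9 and 70.8 CPM in G1 and at 172, 102, 208, 133 and 250 CPM in cycling cells (1.91 ± 0.11, adjusted p = 1.66e-59). Its partners Suz12 and Eed rose by 0.98 and 0.66. The small RNA-binding proteins Lsm3 and Snrpd1, of the U6 and spliceosomal core particles, rose by 1.36 ± 0.10 and 0.83. Lsm3 overlapped between the groups, at 31.8 to 75.3 CPM in G1 and 33.9 to 192 CPM in cycling cells, the lowest pair being that of Control tissue-3.

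Nucleolar and nucleotide synthesis genes rose in part. In the comparison of S cells with G1, where 10.3% of genes were called (6.71% higher, 3.56% lower), 16 of 34 rose and 0 fell. In that of G2M cells, where 22.3% were called (10.4% higher, 11.9% lower), 6 of 33 rose and 1 fell. The difference between the 2 counts was not tested. Over all cycling cells 17 of 34 members tested of 37 rose and 0 fell. Nop58, a box C/D ribonucleoprotein of ribosomal RNA modification, rose by 0.62 ± 0.07 from between 191 and 311 CPM to between 221 and 452 CPM. Paics, of purine synthesis, was 0.87 ± 0.09 higher in S cells and differed by -0.030 ± 0.11 in G2M cells. Of the 78 ribosomal protein genes, 0 rose and 8 fell, with a median of -0.09. Over all cycling cells 10.9% of all genes tested rose and 10.2% fell, so the ribosomal falls were near the background share.

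**Figure D4:**
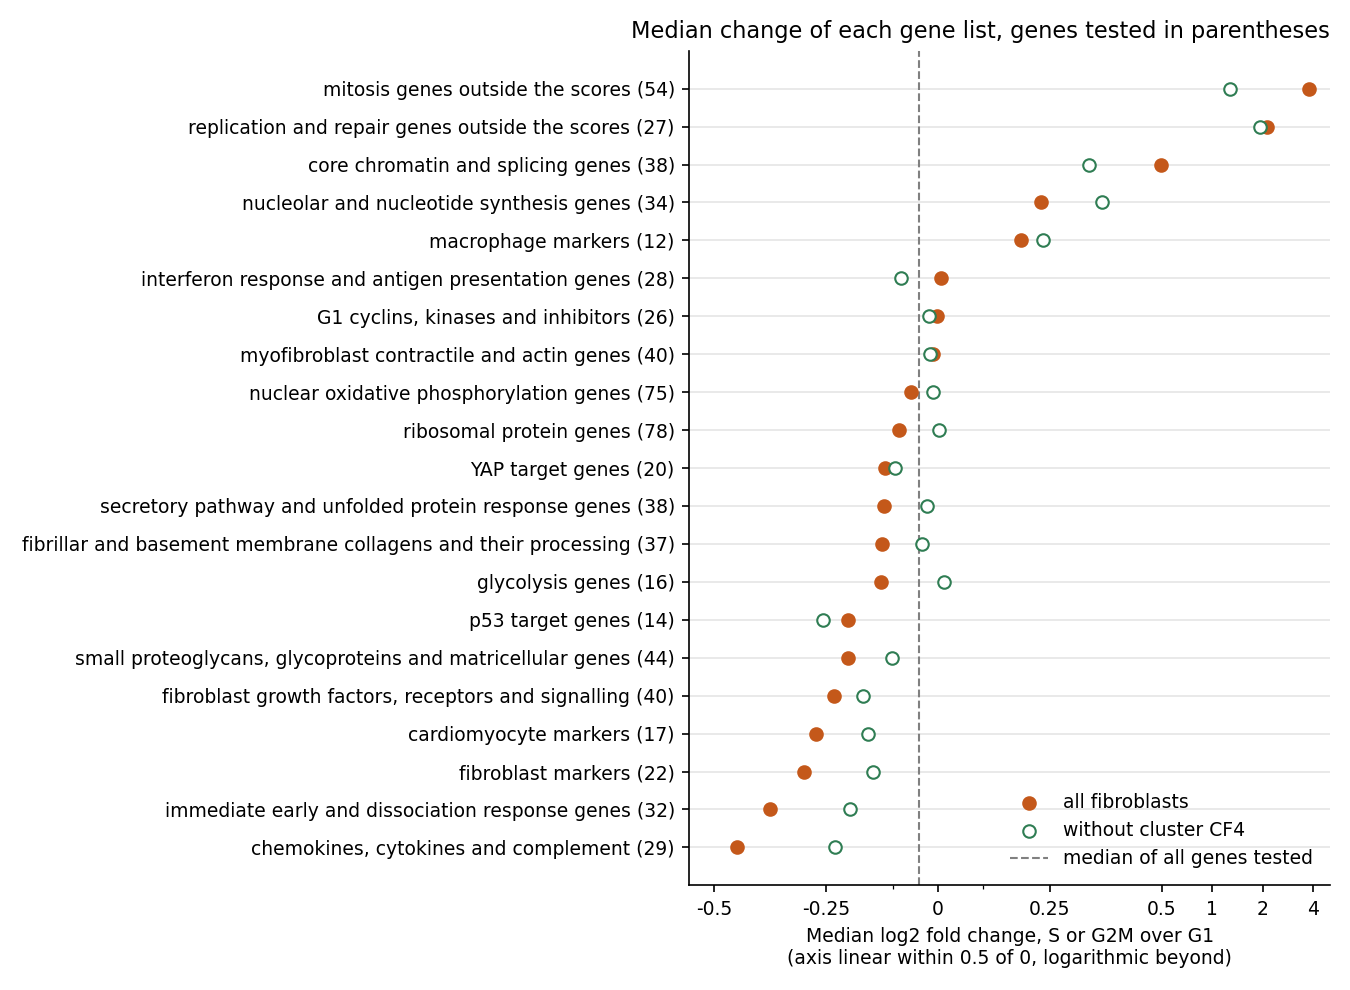
Median log2 fold change of each gene list (filled, all fibroblasts; open, without cluster CF4), with the number of genes tested in parentheses and the median of all genes as a dashed line at -0.04. Mitosis and replication genes stand at 3.76 and 2.13, and chemokine, cytokine and complement genes are lowest at -0.45. The mitosis and replication medians are over genes that passed the filter and so are a description.

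Genes that define fibroblasts were lower in cycling cells. Over all genes tested 10.2% fell, and 1.72% fell without CF4. Of 22 fibroblast markers, 19 fell and 0 rose, with a median of -0.30, and 6 of 22 fell without CF4. Their summed level went from 53972, 61769, 61195, 59528 and 63442 CPM in G1 to 43981, 51640, 52108, 50253 and 54177 CPM in cycling cells, lower in all 5 libraries. The lowest G1 value, 53972 CPM, lay below the highest cycling value, 54177 CPM. Gsn, an actin-severing protein abundant in resting cardiac fibroblasts, stood at 1475, 22340, 4869, 1753 and 2281 CPM in G1 and at 870, 13664, 3458, 1475 and 1942 CPM in cycling cells (-0.48 ± 0.05, adjusted p = 5.22e-14). Dcn, the proteoglycan decorin, fell by 0.26 ± 0.04, and the lineage transcription factor Tcf21 fell by 0.28 ± 0.09. Pdgfra, the receptor that marks resident fibroblasts, did not pass (-0.14 ± 0.08, adjusted p = 0.206). Cardiomyocyte markers also fell, 10 of 17 with a median of -0.27, and their summed level went from 3764, 10583, 3728, 1150 and 3854 CPM in G1 to 3168, 10642, 3057, 1042 and 3095 CPM. Macrophage markers rose in 2 of 12 tested (C1qc and Mrc1) and fell in 0, where 10.9% of all genes tested rose. The part of RNA from other cells in these results was not tested. In cells thinned to 1000 UMIs, where 758 of 6256 genes were called (12.1%; 6.79% higher and 5.32% lower), 16 of the 22 fibroblast markers fell and 0 rose. A fall was also seen in the macrophage clusters, where the 22 markers summed to 808 CPM against 55035 CPM in fibroblasts. There, compared in the same way below, 6 of the 11 fibroblast markers tested fell and 0 rose, with a median of -0.41. In macrophages 16.2% of all genes were called lower. The part of RNA from other cells in the macrophage values was not tested either.

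Matrix genes fell modestly. Of 37 collagen and collagen-processing genes, 14 fell and 0 rose, with a median of -0.12, and none of the 37 passed without CF4. Col1a1, a chain of the main fibrillar collagen, stood at 4791, 837, 2070, 2251 and 1396 CPM in G1 and at 4014, 696, 1849, 1742 and 1242 CPM in cycling cells (-0.25 ± 0.05, adjusted p = 5.97e-06). It was lower in each library on this scale, and the groups overlap. Scaled to all UMIs, Col1a1 in Control tissue-3 went from 690 to 724 CPM, on 263 and 41 UMIs, and was lower in the other 4 libraries. Of 44 proteoglycan, glycoprotein and matricellular genes tested of 51, 23 fell and 1, the glycoprotein Tnc, rose (0.17). Ogn, a small leucine-rich proteoglycan, fell by 0.69 ± 0.06 from 539, 1623, 424, 370 and 656 CPM to 330, 866, 257, 237 and 423 CPM. Mgp, an inhibitor of calcification, fell by 0.49 ± 0.05 from between 5499 and 12786 CPM to between 4062 and 9765 CPM. Postn, a matricellular protein of activated fibroblasts, did not pass (0.06 ± 0.05, adjusted p = 0.425), at 302 to 5805 CPM in G1 and 221 to 5816 CPM in cycling cells. Acta2, the smooth muscle actin of myofibroblasts, did not pass either (0.05 ± 0.06, adjusted p = 0.70). Of 40 myofibroblast and actin genes tested of 42, 7 rose and 3 fell, where 10.9% of all genes rose and 10.2% fell. None of the 40 passed without CF4. The largest rise among them was that of the non-muscle myosin Myh10 (0.61). Matrix genes were also lower in cycling cells of the macrophage clusters, where 16.2% of all genes were called lower. There 5 of 18 collagen and collagen-processing genes fell and 0 rose, with a median of -0.23. Of 18 proteoglycan, glycoprotein and matricellular genes, 10 fell and 0 rose, with a median of -0.42. Fibroblast markers summed to only 808 CPM in macrophages, against 55035 CPM in fibroblasts, and 11 of 17 cardiomyocyte markers fell there too. The part of RNA from other cells in these macrophage values was not tested.

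Secreted growth regulators fell or did not pass. Of 40 genes of growth factors, receptors and signalling tested of 56, 18 fell and 0 rose, with a median of -0.23. Over all genes tested 10.2% fell. Gas6, a ligand of TAM receptors, and Fgf7, an epithelial growth factor, fell by 1.33 and 0.77. Tgfb2, a TGF-beta ligand, fell by 0.65 ± 0.11 from 92.1, 146, 129, 82.5 and 127 CPM to 61.5, 84.9, 74.1, 55.2 and 79.8 CPM. Igfbp4, an insulin-like growth factor binding protein, fell by 0.53 ± 0.06 from 486, 897, 744, 830 and 639 CPM to 257, 441, 493, 657 and 501 CPM. Both were lower in 5 of 5 libraries, and for both the groups overlap. In macrophages 7 of 18 genes of this list fell and 1 rose, with a median of -0.48. There 16.2% of all genes fell and 15.0% rose, and the part of RNA from other cells was not tested.

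Complement, chemokine and cytokine genes had the lowest median of the lists, -0.45. Of 29 members tested of 41, 22 fell and 1 rose, the rise being that of the monocyte chemokine Ccl2 (0.36). Over all genes tested 10.2% fell and 10.9% rose. Without CF4, 7 of 28 fell and 0 rose, where 1.72% of all genes fell and 3.83% rose. Il6, the interleukin of the acute phase response, stood at 157, 35.0, 40.9, 131 and 92.1 CPM in G1 and at 80.8, 17, 32.9, 57.7 and 75.0 CPM in cycling cells (-0.86 ± 0.12, adjusted p = 8.54e-12). It was lower in 5 of 5 libraries although the groups overlap, and its 17 CPM in cycling cells of Control tissue-3 is 1 UMI. C4b and C3, central complement components, fell by 1.11 and 0.58, and the level of C3 in another cell class was 26.6-fold that in fibroblasts. Cd55, which protects cells from complement, fell by 0.72 ± 0.08 from 64.9, 302, 394, 214 and 210 CPM to 34.3, 136, 244, 128 and 137 CPM. Ptx3, a soluble pattern recognition protein outside that list, fell by 0.83 ± 0.15.

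Immediate early genes, which cells also induce during enzymatic dissociation, were lower in cycling cells. Over all genes tested 10.2% fell and 10.9% rose. Of 32 genes of this list tested of 38, 22 fell, 4 rose and 6 did not pass, with a median of -0.38. The 4 that rose, Hsp90aa1, Hsph1, Dnajb1 and Hspa8, are heat-shock chaperones and co-chaperones rather than immediate early transcription factors. Fos, a subunit of AP-1, stood at 558, 2533, 788, 285 and 292 CPM in G1 and at 302, 1833, 597, 226 and 202 CPM in cycling cells (-0.52 ± 0.06, adjusted p = 1.92e-15). Egr1, a zinc-finger early response factor, fell by 0.33 ± 0.05 and Cebpd, of the acute phase response, by 0.51 ± 0.06. Hsp90aa1 rose by 0.61 ± 0.06 from 259, 251, 361, 419 and 557 CPM to 417, 204, 560, 623 and 884 CPM, with Control tissue-3 the 1 library that was lower. Scaled to all UMIs, Hsp90aa1 went from 207 to 212 CPM in that library, on 79 and 12 UMIs. Without CF4, 7 of 32 members fell and 2 rose, where 1.72% of all genes fell and 3.83% rose. In cells thinned to 1000 UMIs, 12 of 30 fell and 1 rose, where 5.32% of all genes fell and 6.79% rose.

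The lowered genes chosen by the naming rule included Adamtsl2, a matrix protein that binds fibrillin, which fell by 1.13 ± 0.18 from 63.8, 63.6, 53.9, 26.2 and 39.3 CPM to 18.6, 33.9, 15.3, 18.4 and 26.6 CPM. Scara5, a ferritin receptor, fell by 0.99 ± 0.15, from 15.7, 436, 102, 53.1 and 68.5 CPM to 3.57, 306, 58.8, 26.4 and 25.4 CPM. Gadd45a, the stress and growth arrest gene of the p53 list, went from 26.2, 70.0, 42.5, 64.6 and 41.6 CPM to 8.58, 33.9, 29.4, 39.3 and 24.2 CPM. Each of these was lower in 5 of 5 libraries and overlapped between the groups. For Adamtsl2 and Gadd45a the cycling level of Control tissue-3, 33.9 CPM, stands for very few UMIs. Ypel3, linked to growth arrest, fell by 0.84 ± 0.13, and Ahnak2, L3mbtl3 and Slc25a1, a mitochondrial citrate carrier, fell by 1.03, 0.81 and 0.88.

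YAP target, metabolic, interferon and secretory genes had small median changes. Of 20 YAP target genes tested of 29, 5 fell and 0 rose, with a median of -0.12. Of 75 nuclear genes of oxidative phosphorylation, 3 rose and 9 fell, and of 16 glycolysis genes tested of 20, 3 fell and 0 rose. Of 28 interferon and antigen presentation genes tested of 34, 3 rose and 3 fell. Of 38 secretory pathway genes tested of 40, 11 fell and 0 rose, with Dnajb9 and Xbp1 of the unfolded protein response at -0.59 and -0.38. Beside these counts, 10.2% of all genes tested were lower and 10.9% higher, so YAP target and secretory genes were called lower at above the background share.

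Whether genotype altered the phase difference could be tested only with 2 Control libraries, of which Control tissue-3 has 57 cycling cells. Of 8714 genes, 6 differed in the phase contrast between YAP5SA and Control libraries (0.0689%), and 375 had an unadjusted p of 0.05 or less, while DESeq2 called 0 and gave 58 at that unadjusted p. Gsn went from 1475 to 870 and from 22340 to 13664 CPM in Control libraries, and from 4869 to 3458, 1753 to 1475 and 2281 to 1942 CPM in YAP5SA libraries. The difference between genotypes was 0.41 ± 0.09 (edgeR adjusted p = 0.0403). This call rested on the scaling: with library totals the difference was 0.23 (adjusted p = 0.769). Scaled to all UMIs, the cycling level was 0.595 and 0.771 of the G1 level in the Control libraries and 0.704, 0.855 and 0.851 of it in the YAP5SA libraries, so the genotypes overlap. Without Control tissue-3 the difference for Gsn was 0.37 (adjusted p = 0.528). Cenpq, of the inner kinetochore, went from 19.9 to 66.5 and from 15.9 to 17 CPM in Control libraries, and from 10.6 to 121, 8.72 to 114 and 10.1 to 109 CPM in YAP5SA libraries (1.96 ± 0.47, adjusted p = 0.0403). The level of 17 CPM in Control tissue-3 is 1 UMI, against 5 UMIs in its G1 cells. The difference for Cenpq was 1.79 without that library (adjusted p = 0.528) and 3.50 without Control tissue-2 (adjusted p = 0.505), so the call was lost without either. The differences for Prc1, Fos, Il6 and Postn did not pass, at 0.46 ± 0.60, 0.34 ± 0.13, 0.15 ± 0.26 and 0.10 ± 0.11 (edgeR adjusted p = 0.998 each). A p above the threshold does not show equal changes here. Counts were drawn for this design, with known differences in genes of average log2 CPM of at least 5. The test recovered only 19.4% of 1.5-fold differences, 56.7% of 2-fold and 98.5% of 4-fold differences. Lower genes were not tried. The 2 genotypes were also compared within a phase. Within cycling fibroblasts 9 of 9148 genes (0.0984%) differed, 6 higher in YAP5SA libraries and all 6 of them pseudogene or predicted gene names such as Rpl27-ps2, and 3 lower, Wisp2, Plk2 and Ccl9. These names were chosen after their values were seen, and the libraries differ in how overlapping gene names were deposited. Within G1 fibroblasts 0 of 9294 genes differed (0.0%), with 530 at an unadjusted p of 0.05 or less and 6 called by DESeq2.

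The same contrast was computed in the authors' macrophage clusters of the same libraries, with 4981 cycling and 2523 G1 cells, to ask which changes differ in fibroblasts. In macrophages 2391 of 7650 genes were called (31.3%; 15.0% higher and 16.2% lower). The phase change differed between the classes for 440 of 10195 genes (4.32%), 132 of them with a higher value in fibroblasts. That split turned with the scaling, to 220 higher and 101 lower with DESeq2-style size factors and to 187 higher and 152 lower with library totals. Prc1 rose by 6.18 in fibroblasts and 5.47 in macrophages, a difference of 0.63 ± 0.44 (adjusted p = 0.51). Arhgap11a rose by 4.59 ± 0.24 in fibroblasts and 1.64 ± 0.16 in macrophages, a difference of 2.88 ± 0.36 (adjusted p = 1.03e-12). Arl6ip1, an endoplasmic reticulum shaping protein, rose by 2.10 ± 0.07 and 0.89 ± 0.06, a difference of 1.12 ± 0.10. Both differences fell under the threshold without the clusters CF4 and Mac4, at 0.90 and 0.02.

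Among the other genes named for a class difference, the sizes or directions differed. Igfbp4 fell in fibroblasts (-0.53 ± 0.06) and did not pass in macrophages (0.20 ± 0.09), a difference of -0.81 ± 0.10 (adjusted p = 5.39e-12). Thbs1, an adhesive matricellular protein, fell by 0.23 ± 0.06 in fibroblasts and by 1.71 ± 0.15 in macrophages, a difference of 1.41 ± 0.16. Tmem176b, a membrane protein of antigen-presenting cells, fell by 0.36 ± 0.07 in fibroblasts and rose by 0.43 ± 0.10 in macrophages. Hmgn1 and Anp32b, nucleosome-binding and histone chaperone proteins, rose less in fibroblasts (0.21 and 0.55) than in macrophages (0.78 and 0.98). Ccnd1 rose by 0.26 ± 0.08 in fibroblasts and fell by 0.32 ± 0.06 in macrophages, a difference of 0.51 ± 0.10 (adjusted p = 3.5e-05). Mxd4 fell in both, by 0.92 ± 0.09 and 1.38 ± 0.10.

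**Figure D5:**
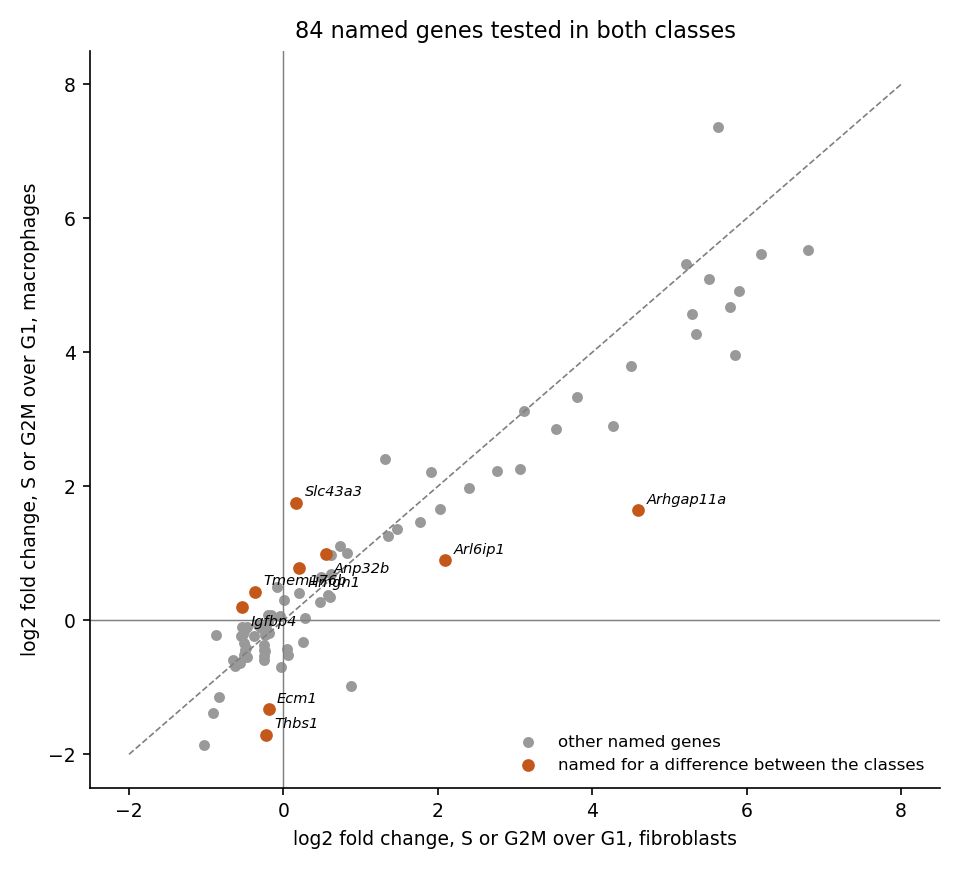
Log2 fold change of 84 named genes between cycling and G1 cells in fibroblasts (horizontal) and macrophages (vertical), with the line of equal change dashed. Arhgap11a and Arl6ip1 lie below the line at 4.59 and 2.10 in fibroblasts, and Igfbp4 lies left of 0 at -0.53.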

How the data were processed

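Drop-seq libraries were made from 6 samples, and 5 libraries with fibroblasts were used. Per the submitters' processing notes the authors used Picard, STAR and Seurat 2.3.4. Genome build, annotation and settings are not given in the sources used here. The deposited table holds raw UMI counts per gene and cell, 22281 features in 21706 cells, already filtered by the authors. The deposited cell table gives library, cluster, phase call, S and G2/M scores (the score unit as the authors' Seurat left it) and the mitochondrial fraction per cell. The score lists were taken as the usual Seurat lists (46 S and 54 G2/M genes matched), which the sources do not state, and the score's control genes are not given in the sources used here. No doublet caller was run, and whether the authors removed doublets is not given. A separate scaled table was not used.

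Counts of 852 names that join overlapping genes, found in 4 of the 6 libraries, were merged with their family, leaving 21224 features. Counts were summed per library and phase group (cycling, S or G2M; G1) and tested across genes with edgeR 4.0.16 in R 4.3.3 (TMM, filterByExpr, robust quasi-likelihood, library as block), with Benjamini-Hochberg adjustment over all 8801 genes fitted and a call at 0.05. The pairing comes from the libraries, since both sums of a pair are cells of 1 library. CPM of a list or marker sum is UMIs per 1000000 UMIs of the cells; CPM of a single gene is per 1000000 of the TMM-scaled total of the tested genes, with the scaling to all UMIs as an alternative chosen after seeing the data. Genotype was tested in the same way as an interaction with phase, and within each phase with preparation as a term, and class as an interaction with phase. Single values were compared with exact permutation tests over libraries, shares with exact binomial 95% intervals. DESeq2 1.42.0, other scalings, no filter, thinning each cell to 1000 UMIs, other cell sets and leaving out each library were alternatives. On simulated counts for the phase contrast in 8607 genes, 85.1% of 1.5-fold and 100% of 2-fold changes were recovered, with 6 false calls. In both simulations the changed genes were drawn only from those with an average log2 CPM of at least 5. They were far fewer than the genes called in the data, and counts were drawn independently. Recovery of lower genes was not tested.

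Named genes were, among called genes with an average log2 CPM of at least 5 that moved the same way in 5 libraries and were not over 5-fold higher in another class, the 10 largest and 10 smallest fold changes. Added were 3 genes per list, 5 per direction for each interaction, and a fixed set of 22 genes. This gave 105 genes outside the scores, of which 91 passed in the phase contrast. Other genes are named only as members of a list. The members, gene lists and tests were chosen with earlier results of these data known. Promoter windows are RefSeq, GRCm38.p6, matched by symbol.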

Additional observations from a re-analysis of the deposited data

Results flagged for a closer look

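The log2 ratio of cycling to G1 CPM, with 1 CPM added to both, was examined in 13 genes over the 5 libraries for a library far from the others, as were 6 cell measures. By Dixon's criterion, which chance meets in about 1 of 20 groups, 3 genes had one. All 3 were Control tissue-3, whose cycling sum holds 57 cells. The ratio there was 0.48 for Ccnd2, -0.45 for Postn and -1.35 for Pdgfra.

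The phase change differed between YAP5SA and Control libraries for 6 genes by an interaction test, with the difference given as YAP5SA minus Control. It was -1.06 for Spp1, 0.54 for Mt1, 0.41 for Gsn, 1.01 for Clec3b, 2.50 for Saa3 and 1.96 for Cenpq. Spp1 stood at 22.5-fold the fibroblast level in another cell class. It was listed at 0 in Control tissue-3 in both phases, so its difference rests on Control tissue-2 on that side.

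The phase change differed between fibroblasts and macrophages, given as fibroblasts minus macrophages, for 10 genes named by the rule. The difference was -0.81 for Igfbp4, 2.76 for Ctsk, 1.12 for Arl6ip1, 1.41 for Thbs1, 1.08 for Ecm1, 2.88 for Arhgap11a, -0.88 for Tmem176b, -1.68 for Slc43a3, -0.65 for Hmgn1 and -0.53 for Anp32b. Ctsk was not fitted in macrophages alone, where it did not pass the filter on low counts.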

How the results depend on the processing

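The genotype difference in the share of fibroblasts called S or G2M, 6.59 percentage points, ranged from -13.3 (without Control tissue-3) to 26.4 (without Control tissue-2) with 1 library left out. The phase contrast called 1836 genes. It called 872 with DESeq2, 758 in cells thinned to 1000 UMIs, 420 without CF4, 837 with S calls alone and 264 in the 2 libraries without joined names. It called 252 without cells holding a UMI of 9 markers of other cells and 258 in sums per cluster, where fewer genes passed the filter (2758 and 2800). Without CF4 and Control tissue-3, chosen after seeing the data, it called 477. Leaving out 1 library gave 1224 (without YAP5SA tissue-2) to 2027. With equal cell numbers per phase group 745 genes were higher and 1146 lower. Without the replicate block, so with the pairing by library dropped, 241 genes were called, all 241 among the 1836. No paired analysis was made between genotypes, because the labels state no pairing of a Control with a YAP5SA library. The labels number the YAP5SA tissue libraries 2 and 3, and the deposited table numbers them 1 and 2.

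The phase by genotype count of 6 became 3 with RLE size factors, 2 with library totals, 2 with no filter, 0 with DESeq2, 3 without CF4 and 2 to 5 with 1 library left out. The phase by class count of 440 became 202 with no filter, 55 without CF4 and Mac4, and 68 (without YAP5SA tissue-2) to 456 with 1 library left out, with 187 when YAP5SA tissue-1 and 234 when YAP5SA enriched was left out. The genotype count of 9 within cycling cells became 0 with library totals, 232 with no filter, 0 without the preparation term, 0 with DESeq2 and 0 to 683 with 1 library left out. Within G1 cells the count of 0 became 109 with no filter, 6 with DESeq2 and 0 to 1496 with 1 library left out. The largest counts, 683 and 1496, came without Control tissue-3 and Control tissue-2, where 1 Control library is left and is assumed to vary like the others.

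Among named genes, the phase change reversed for Cdkn2c (-0.021), Ccnd2 (0.034) and F2rl1 (-0.021) without CF4. It reversed for Paics (-0.030) and Ccnd1 (-0.10) in G2M cells alone, and for Myh10 (-0.0015), Ccnd2 (0.0035), F2rl1 (-0.026) and Arl6ip1 (-0.023) in sums per cluster. It reversed for Cyr61 (0.030) and F2rl1 (-0.13) in libraries without joined names, for Ndufa13 (0.013) without marker cells, for Spp1, which ranged from -0.43 without Control tissue-2 to 0.41 without YAP5SA tissue-2, and for F2rl1 (-0.017) and Arl6ip1 (-0.0013) without CF4 and Control tissue-3. The cause was not tested except where fewer genes passed the filter.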
